A study of Homo sapiens with 4 samples.

Results

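The 10 genes described here belong to the ATP-binding cassette (ABC) superfamily and fall into 3 roles. ABCC1, ABCC3, ABCC4, ABCC5, ABCC10 and ABCB1 encode drug efflux pumps of the plasma membrane, ABCB10 encodes a mitochondrial transporter, and ABCE1, ABCF2 and ABCF3 encode ABC proteins that work with ribosomes. They were chosen by gene symbol, and all 10 were found among the 26364 genes listed in the RNA-seq tables. These genes and the related lists below were chosen with earlier results of these data known. BE(2)C is a human neuroblastoma cell line with amplified MYCN, and all 4 samples came from it. Of these, 2 were control cells (Ctrl, labelled wild type) that received a non-targeting siRNA, and 2 were MYCN knockdown cells (MYCN KD) that received 1 siRNA against MYCN. In both groups the siRNA was given by lipofection, at 80 nM per the labels, and RNA was extracted the next day. The methods of the study give a lower final concentration than the labels. The comparison asks how transcript levels differ after MYCN knockdown, in 1 cell line and with 1 siRNA sequence. Where the labels name replicates, they do not say whether these were separate cultures. The p-values below thus measure only the spread left between these samples after the authors removed unwanted variation. Replicate differences in the 2 groups mirrored each other (correlation of deviations -0.98 over 11411 tested genes), while the test treats the samples as independent.

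ABC proteins bind and hydrolyse ATP through a conserved pair of nucleotide-binding domains. In the B and C subfamilies these domains are joined to membrane-spanning domains, and ATP hydrolysis drives substrates across a membrane, which in tumor cells can carry chemotherapy drugs out of the cell. Proteins of the E and F subfamilies lack membrane-spanning domains and act on ribosomes instead. In neuroblastoma, MYCN has been described as a regulator of several drug efflux genes, with ABCC1 and ABCC4 described as rising and ABCC3 as falling with MYCN, which is background to the choice of genes and not a result of these samples.

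Values are RPKM, reads per kilobase of gene length scaled to the total of reads, so levels can be compared between genes. The totals of reads behind the values were between 29055819 and 34142988 per sample. MYCN, the targeted gene, was at 1068 and 1073 RPKM in Ctrl, compared with 720.2 and 718.0 RPKM in MYCN KD (log2 fold change -0.57 ± 0.029 SE, limma with Benjamini-Hochberg adjustment, adjusted p = 0.00361). This left 0.672 of its mean Ctrl level, in an annotation where MYCN shares 98 exon bases with its antisense gene MYCNOS. Its paralog MYC was higher in MYCN KD, with 0.780 and 0.542 RPKM in Ctrl, compared with 6.73 and 9.32 RPKM in MYCN KD. Of 10 neuroblastoma markers, all were tested, 6 were higher and 2 lower in MYCN KD, and their summed level was 3246 to 3509 RPKM in Ctrl and 4631 to 5002 RPKM in MYCN KD. Of 9 fibroblast and mesenchymal markers, 5 were tested, 4 of them were higher in MYCN KD, and PRRX1 was listed at 0. The sum of the 9 was 233.1 to 239.3 RPKM in Ctrl, compared with 277.1 to 284.02 RPKM in MYCN KD. Most of it came from THY1 alone (Ctrl 216.0 and 207.8, MYCN KD 245.5 and 255.0 RPKM). DCN was called higher (Ctrl 4.58 and 5.52, MYCN KD 9.33 and 7.78 RPKM). So was PDGFRB (Ctrl 10.4 and 10.1, MYCN KD 11.4 and 11.8 RPKM). COL1A1 rose from 0.726 and 0.739 RPKM in Ctrl to 1.78 and 1.74 RPKM in MYCN KD. LUM did not pass the test (Ctrl 6.81 and 8.19, MYCN KD 7.94 and 6.64 RPKM). COL1A2, COL3A1 and FN1 stayed under 1 RPKM in every sample. Of 9 blood and endothelial markers, 2 were tested, 1 of them was higher, and HBB was listed at 0. The sum of these 9 was 5.36 to 6.31 RPKM in Ctrl, compared with 11.6 to 13.8 RPKM in MYCN KD. CD68 made up most of it (Ctrl 4.26 and 3.45, MYCN KD 9.40 and 11.5 RPKM), while PTPRC and CD3E were at or near 0. CD14 did not pass the test (Ctrl 1.74 and 1.51, MYCN KD 1.52 and 1.75 RPKM). Over all tested genes, 25.3% were called higher and 22.8% lower at the same threshold. The part of these markers in the results below was not tested.

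Upon MYCN knockdown, 4 of the 9 tested ABC genes of the set fell (ABCF2, ABCE1, ABCC5 and ABCC1), 1 rose (ABCC10) and 4 did not pass the test (ABCF3, ABCC4, ABCB1 and ABCB10). ABCC3 had a mean under 1 RPKM and was not tested. In bulk RNA, fewer cells with a transcript and less of it per cell cannot be told apart. With any 1 of the 4 samples left out, 2 genes (ABCF2 and ABCE1) were called lower in place of 4. Differences were tested with limma on log2(RPKM + 1) across the 11411 genes with a mean of at least 1 RPKM, and a fold change on this scale understates the change of genes with low levels. Of all tested genes, 22.8% were called lower and 25.3% higher, 48.1% in either direction, so the 5 calls among 9 genes stood near the background. The median log2 fold change was -0.089 over the 9 tested genes of the set and 0.026 over all tested genes. Both MYCN KD values lay below both Ctrl values in 5 of the 9 tested genes, against 35.8% of all tested genes, and above both in 1 of 9, against 40.4%. In the other 3 tested genes (ABCC4, ABCB1 and ABCB10) the groups overlapped.

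**Figure D1:**
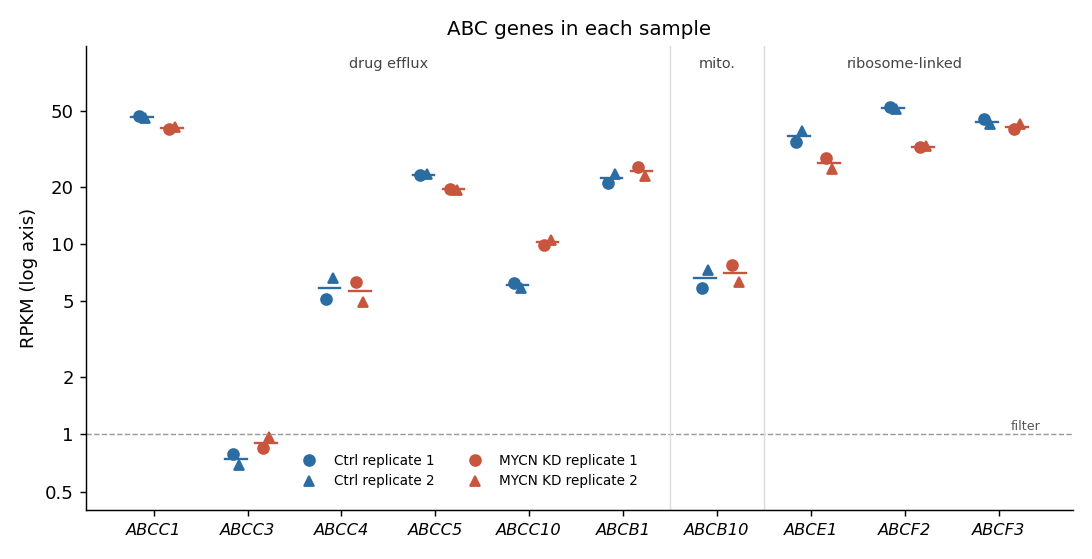
RPKM (log axis) of each of the 10 ABC genes, grouped by role, in Ctrl (blue) and MYCN KD (orange), with a circle for replicate 1, a triangle for replicate 2, a short line at the group mean and a dashed line at the filter of 1 RPKM. ABCF2, ABCE1, ABCC5 and ABCC1 are lower in both MYCN KD samples, ABCC10 is higher in both, and ABCC4, ABCB1 and ABCB10 overlap between the groups.

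Among the ribosome-linked genes, ABCF2 and ABCE1 fell while ABCF3 did not pass the test. To show the sequence next to the start of the genes with the largest changes, the 250 bases before the RefSeq start of ABCE1, ABCF2 and ABCC10 are given below from the RefSeq promoter windows (GRCh38.p14), 5′ to 3′ on the strand of the gene, in lower case with matches to E-box motifs in capitals. MYCN with its partner MAX binds E-boxes, above all CACGTG, and also variants such as CACGCG, which reads CGCGTG on the other strand. The window of ABCE1 is chr4:145098061-145098310 on the + strand, that of ABCF2 is chr7:151227206-151227455 on the - strand, and that of ABCC10 (chr6:43427291-43427540, + strand) is the further upstream of its 2.
ABCE1: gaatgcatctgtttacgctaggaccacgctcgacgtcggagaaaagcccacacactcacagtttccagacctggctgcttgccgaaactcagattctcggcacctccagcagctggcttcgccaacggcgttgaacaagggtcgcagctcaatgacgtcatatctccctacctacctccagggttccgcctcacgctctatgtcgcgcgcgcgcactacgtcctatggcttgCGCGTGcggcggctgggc
ABCF2: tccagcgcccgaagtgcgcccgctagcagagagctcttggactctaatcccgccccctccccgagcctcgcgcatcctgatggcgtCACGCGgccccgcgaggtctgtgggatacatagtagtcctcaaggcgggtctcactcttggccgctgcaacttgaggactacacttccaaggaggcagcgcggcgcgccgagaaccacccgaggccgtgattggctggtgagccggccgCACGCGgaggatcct
ABCC10: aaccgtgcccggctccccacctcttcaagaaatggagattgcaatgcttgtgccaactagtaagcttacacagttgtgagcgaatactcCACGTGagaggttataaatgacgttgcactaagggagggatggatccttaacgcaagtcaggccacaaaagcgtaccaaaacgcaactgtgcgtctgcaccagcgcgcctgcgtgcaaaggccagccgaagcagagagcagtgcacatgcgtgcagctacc

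Motifs were searched on both strands in windows of 250 bases before to 50 after the start. A stretch that matches 1 motif does not match the other, although neighbouring matches may share bases. CACGTG was in 7.26% and CACGCG or its reverse complement in 11.4% of 35116 RefSeq windows, and in 9.74% and 18.0% of the windows of tested genes. Windows were found for 8 of the 10 genes, with 2 windows each for ABCC10 and ABCB1; ABCC1 and ABCC3 had no entry. Counted from the start, ABCF2 held CACGCG at -164 and -15, ABCE1 at -18, ABCF3 at -203 and ABCC4 at -117. The CACGTG match of ABCC10 was at -161 of the upstream window, the one printed, and its other window held neither motif. Neither motif was in the windows of ABCC5, ABCB1 or ABCB10. A match describes the letters in the window and nothing more, and genes with a match were found among those that fell (ABCF2, ABCE1), rose (ABCC10) and did not pass (ABCF3, ABCC4).

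ABCF2 (GRCh37 chr7:150908570-150924291, - strand) encodes a cytosolic ABC protein related to yeast Arb1, a factor of ribosome biogenesis. It was at 52.5 and 51.5 RPKM in Ctrl, compared with 32.2 and 32.9 RPKM in MYCN KD. The groups were far apart next to the gaps between replicates, and its mean fell by 37.3% (log2 fold change -0.66 ± 0.035 SE, limma with Benjamini-Hochberg adjustment, adjusted p = 0.00371). Only 5.63% of tested genes had a lower log2 fold change. Its annotation shares 1914 exon bases with the readthrough gene ABCF2-H2BK1 on the same strand, a gene that was not among those listed.

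ABCE1 (chr4:146019440-146050676, + strand) encodes an iron-sulfur ATPase that splits ribosomes into subunits after termination, so that they can be used again. In Ctrl it was at 34.4 and 39.2 RPKM, and in MYCN KD at 28.2 and 24.9 RPKM. The groups did not overlap, although the replicates differed more than those of ABCF2. Its mean fell by 27.9% (log2 fold change -0.46 ± 0.10 SE, limma with Benjamini-Hochberg adjustment, adjusted p = 0.0347). This call was lost when each sample was rescaled to the same total RPKM (log2 fold change -0.40, adjusted p = 0.0662) and when no filter on low values was used (adjusted p = 0.0554). Exons of ABCE1 overlap those of ANAPC10 over 132 bases and of OTUD4 over 276 bases, both on the opposite strand and at a mean of 4.34 and 4.45 RPKM. Whether counting used strand is not given in the sources used here.

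ABCF3 (chr3:183903883-183911800, + strand) encodes a relative of yeast Gcn20, a partner in sensing amino acid shortage at the ribosome. Its level was 45.4 and 42.6 RPKM in Ctrl, compared with 40.0 and 42.6 RPKM in MYCN KD. The highest MYCN KD value lay just under the lowest Ctrl value, and the difference did not pass the test (log2 fold change -0.089 ± 0.057 SE, limma with Benjamini-Hochberg adjustment, adjusted p = 0.268). The ratio of ABCF2 to ABCF3 was 1.16 and 1.21 in Ctrl, compared with 0.805 and 0.772 in MYCN KD, and that of ABCE1 to ABCF3 was 0.757 and 0.919 in Ctrl, compared with 0.703 and 0.584 in MYCN KD. Neither ratio overlapped between the groups. How often ratios of other gene pairs lie apart was not tested, for these and for the ratios below. In an exact two-sided permutation test each gave p = 0.3333, which is the smallest p that 2 against 2 samples allow. Summed over the 3 ribosome-linked genes, the level was 132.3 and 133.3 RPKM in Ctrl, compared with 100.43 and 100.37 RPKM in MYCN KD.

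Among the drug efflux genes, ABCC1 and ABCC5 fell, ABCC10 rose, and ABCC4 and ABCB1 did not pass the test. ABCC1 (chr16:16042995-16237114, + strand) encodes MRP1, which exports glutathione conjugates and drugs such as vincristine and doxorubicin. It was at 47.3 and 46.1 RPKM in Ctrl, compared with 40.4 and 41.4 RPKM in MYCN KD. All MYCN KD values were below all Ctrl values, and the mean fell by 12.4% (log2 fold change -0.19 ± 0.037 SE, limma with Benjamini-Hochberg adjustment, adjusted p = 0.0275). The direction was the same in every alternative run, but the call was lost with quantile normalization (log2 fold change -0.12, adjusted p = 0.0718) and without each of the 4 samples in turn (adjusted p = 0.167 to 0.290).

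ABCC5 (chr3:183637722-183735727, - strand) encodes MRP5, an exporter of cyclic GMP and nucleotide analogs. Its level was 23.0 and 23.4 RPKM in Ctrl, compared with 19.6 and 19.3 RPKM in MYCN KD. The replicates lay close together in each group, and the mean fell by 16.2% (log2 fold change -0.24 ± 0.035 SE, limma with Benjamini-Hochberg adjustment, adjusted p = 0.0146). Here too the call was lost without each of the 4 samples in turn (adjusted p = 0.111 to 0.159). Over the 4 samples, ABCC1 and ABCC5 were each other's nearest genes among the 22 other tested ABC family genes, by the distance of centred log2(RPKM + 1) values (0.0775).

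ABCC10 (chr6:43395104-43418165, + strand) encodes MRP7, a pump known for exporting taxanes and vinca alkaloids. It was the only gene of the set called higher, at 6.27 and 5.89 RPKM in Ctrl, compared with 9.91 and 10.5 RPKM in MYCN KD. Both MYCN KD samples were well above both Ctrl samples, and the mean rose by 68.1% (log2 fold change 0.66 ± 0.056 SE, limma with Benjamini-Hochberg adjustment, adjusted p = 0.00591). Of all tested genes, 6.42% had a higher log2 fold change. The ratio of ABCC10 to ABCC1 was 0.132 and 0.128 in Ctrl, compared with 0.245 and 0.254 in MYCN KD, without overlap (exact two-sided permutation p = 0.3333, the smallest possible). ABCC10 shares 76 exon bases with DLK2 on the opposite strand, and DLK2 was at a mean of 0.384 RPKM. Its nearest gene in pattern was ABCA7 (distance 0.0839 on log2(RPKM + 1) values). This scale understates changes at low levels, and in RPKM the mean of ABCA7 rose by more (122%).

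ABCB1 (chr7:87132333-87342639, - strand) encodes P-glycoprotein, a drug pump with a broad range of substrates. Its values were 20.9 and 23.4 RPKM in Ctrl, compared with 25.5 and 22.9 RPKM in MYCN KD. The groups overlapped, and the difference did not pass the test (log2 fold change 0.12 ± 0.089 SE, limma with Benjamini-Hochberg adjustment, adjusted p = 0.317). ABCB1 relative to ABCC1 was at 0.441 and 0.507 in Ctrl, compared with 0.631 and 0.552 in MYCN KD, which did not overlap (exact two-sided permutation p = 0.3333, the smallest possible). Since ABCC1 itself fell without overlap, this ratio is no separate result on ABCB1.

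ABCC4 (chr13:95672089-95953729, - strand) encodes MRP4, an exporter of cyclic nucleotides and nucleotide analogs. At 5.13 and 6.65 RPKM in Ctrl, compared with 6.34 and 4.93 RPKM in MYCN KD, it varied more between replicates than between groups (log2 fold change -0.054 ± 0.17 SE, limma with Benjamini-Hochberg adjustment, adjusted p = 0.814). The sign of the difference turned without Ctrl replicate 2 (log2 fold change 0.11) and without MYCN KD replicate 2 (0.10). ABCC3 (chr17:48712138-48769614, + strand) encodes MRP3, which exports glucuronides and bile salts, and was the lowest gene of the set. It was at 0.789 and 0.688 RPKM in Ctrl, compared with 0.842 and 0.963 RPKM in MYCN KD. These values rest on 142 and 116 reads in Ctrl, compared with 129 and 157 reads in MYCN KD. Their exact 95% Poisson intervals, which cover counting error only, ran from 119.6 to 167.4 and 95.85 to 139.1 reads in Ctrl. In MYCN KD they ran from 107.7 to 153.3 and 133.4 to 183.6 reads. These intervals treat the counts as raw reads, although counts were adjusted before deposit. In the fit without a filter on low values, the difference of ABCC3 did not pass the test (log2 fold change 0.13 ± 0.055 SE, limma with Benjamini-Hochberg adjustment, adjusted p = 0.181).

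Across the 6 efflux genes the summed level was 103.4 and 106.1 RPKM in Ctrl, compared with 102.6 and 100.04 RPKM in MYCN KD. Within this sum, ABCC1 made up 45.8% and 43.5% in Ctrl, compared with 39.4% and 41.4% in MYCN KD, and was the largest share in every sample. The share of ABCC10 was 6.06% and 5.55% in Ctrl, compared with 9.67% and 10.5% in MYCN KD. ABCC5 gave 22.3% and 22.0% in Ctrl, compared with 19.1% and 19.3% in MYCN KD, while ABCB1 gave 20.2% and 22.0% in Ctrl, compared with 24.9% and 22.8% in MYCN KD.

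ABCB10 (chr1:229652329-229694454, - strand) encodes a transporter of the inner mitochondrial membrane that takes part in heme synthesis and stabilises the iron importer mitoferrin. In Ctrl it was at 5.91 and 7.31 RPKM and in MYCN KD at 7.74 and 6.30 RPKM. Its groups overlapped (log2 fold change 0.076 ± 0.15 SE, limma with Benjamini-Hochberg adjustment, adjusted p = 0.693), and the sign turned without Ctrl replicate 1 (log2 fold change -0.058) and without MYCN KD replicate 1 (-0.054).

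In order of mean level in Ctrl, ABCF2 (52.0 RPKM) was followed by ABCC1 (46.7 RPKM), ABCF3 (44.02 RPKM), ABCE1 (36.8 RPKM), ABCC5 (23.2 RPKM), ABCB1 (22.1 RPKM), ABCB10 (6.61 RPKM), ABCC10 (6.08 RPKM), ABCC4 (5.89 RPKM) and ABCC3 (0.739 RPKM). Neighbours in this order were apart in their sample ranges except ABCC5 and ABCB1, ABCB10 and ABCC10, and ABCC10 and ABCC4. In MYCN KD the order was ABCF3 (41.3 RPKM), ABCC1 (40.9 RPKM), ABCF2 (32.6 RPKM), ABCE1 (26.5 RPKM), ABCB1 (24.2 RPKM), ABCC5 (19.4 RPKM), ABCC10 (10.2 RPKM), ABCB10 (7.02 RPKM), ABCC4 (5.64 RPKM) and ABCC3 (0.902 RPKM), with overlapping ranges between ABCF3 and ABCC1, ABCE1 and ABCB1, and ABCB10 and ABCC4. ABCF2 thus had the highest mean of the set in Ctrl, and ranked below ABCF3 and ABCC1 in MYCN KD.

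**Figure D2:**
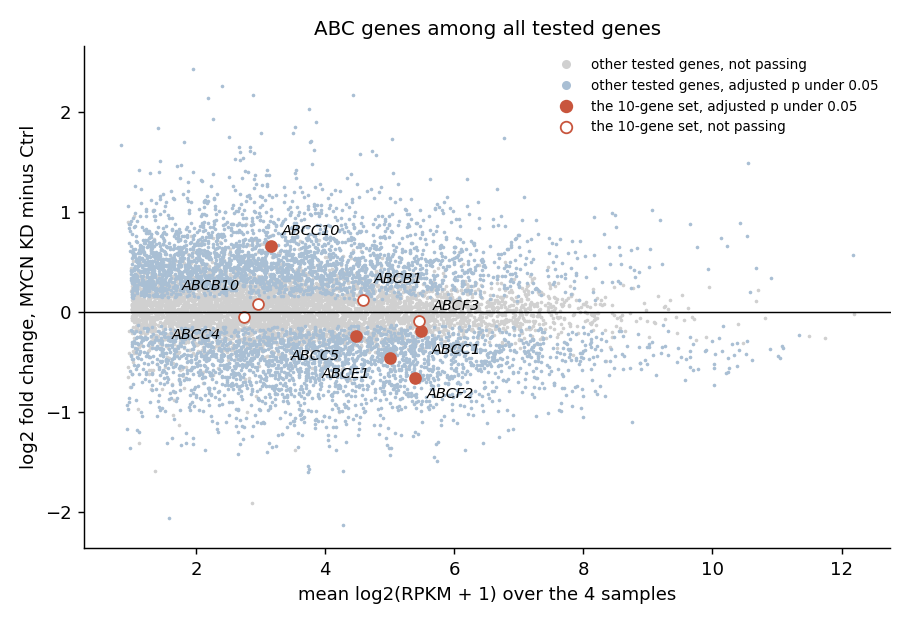
Log2 fold change (MYCN KD minus Ctrl, on log2(RPKM + 1)) against mean log2(RPKM + 1) over the 4 samples, 1 point per tested gene, with the 9 tested genes of the set in orange, filled where the adjusted p is under 0.05. ABCF2 and ABCE1 lie among the lower genes and ABCC10 among the higher, while ABCC1 and ABCC5 sit closer to 0.

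All 10 genes shared a feature of these libraries: their replicate differences ran in opposite directions in Ctrl and MYCN KD, as they did in 11335 of 11409 tested genes. ABCC4 was 1.297 times as high in Ctrl replicate 2 as in replicate 1, and 1.285 times as high in MYCN KD replicate 1 as in replicate 2. For ABCB10 the corresponding ratios were 1.24 and 1.23, for ABCE1 1.14 and 1.13, and for ABCB1 1.12 and 1.12. ABCF2 had the ratios 0.981 and 0.980, so its replicates lay much closer together. The authors had removed unwanted variation from the counts before these values were deposited, and the part of that step in this pattern was not tested.

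**Figure D3:**
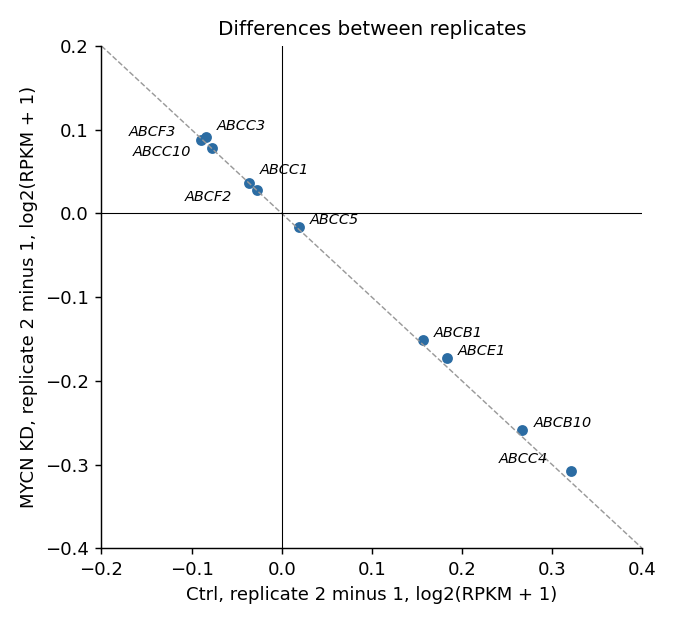
Difference of log2(RPKM + 1), replicate 2 minus replicate 1, in Ctrl (x axis) and in MYCN KD (y axis) for the 10 ABC genes, with a dashed line where the gaps are equal and opposite. The points lie along that line, from ABCC4 (0.32 in Ctrl and -0.31 in MYCN KD) to ABCF3 (-0.089 and 0.088).

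The other 38 genes of the ABC family were all listed, and 14 of them were tested, of which 4 rose, 2 fell and 8 did not pass. Their median log2 fold change was 0.20, against 0.026 over all tested genes, of which 25.3% were called higher and 22.8% lower. ABCA7, a lipid transporter, rose by 0.58 on the log2 scale (limma with Benjamini-Hochberg adjustment, adjusted p = 0.00865), from 0.743 and 0.642 RPKM to 1.44 and 1.64 RPKM. ABCD2, a peroxisomal fatty acid transporter, was at 2.501 and 2.887 RPKM in Ctrl, compared with 4.29 and 3.73 RPKM in MYCN KD and was called higher. ABCB8, a mitochondrial relative of ABCB10, was called higher as well, at 9.16 and 7.97 RPKM in Ctrl, compared with 11.5 and 13.1 RPKM in MYCN KD. The lysosomal peptide transporter ABCB9 was called lower at 8.07 and 7.26 RPKM in Ctrl, compared with 5.65 and 6.28 RPKM in MYCN KD. Without Ctrl replicate 1, 7 of the 14 were called higher in place of 4, and 1 was called lower in place of 2, as also without MYCN KD replicate 1 or 2. When samples were rescaled to the same total, the 2 lower calls, that of ABCB9 among them, were lost. This left 0 of the 14 lower in limma (2 at an unadjusted p under 0.05). Without this rescaling, limma voom on recovered reads called 2 lower. ABCG2, another well known drug pump, was listed at 0 in all samples. ABCF1, the other F subfamily member, was listed at 0.00242 to 0.0040 RPKM, which rests on 2 to 3 reads per sample over a length of 24240 bases, so no comparison with ABCF2 and ABCF3 was made. That length is close to the span of the gene, introns included (25787 bases). For TAP1 and TAP2, on the same chromosome, the lengths (25135 and 49212 bases) exceed the spans (8608 and 16907 bases). Whether so few reads reflect the level of the ABCF1 transcript was not tested.

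**Figure D4:**
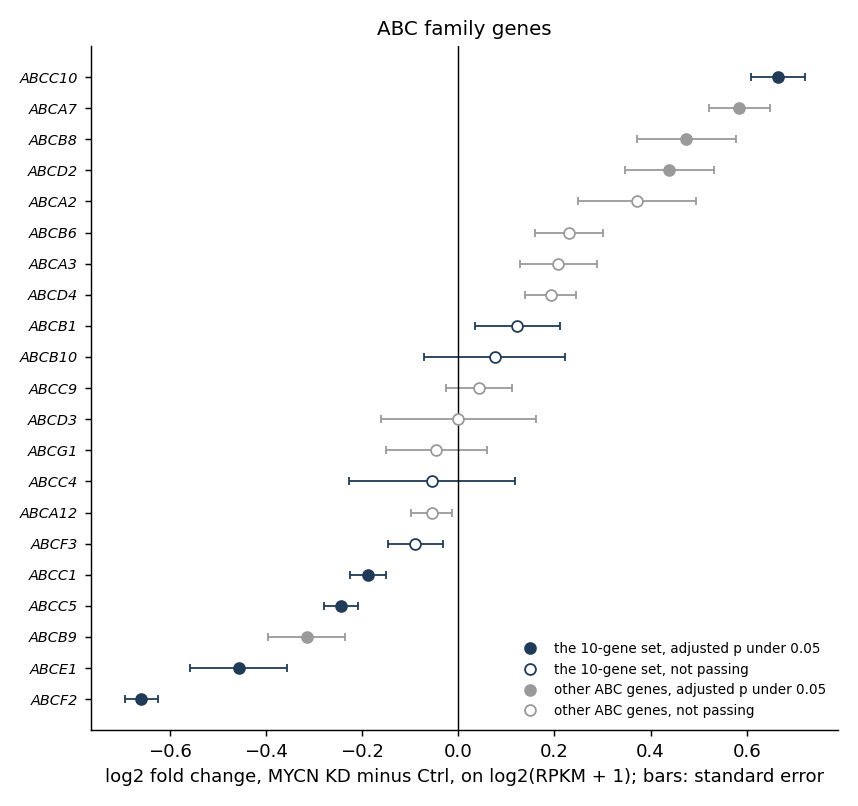
Log2 fold change (MYCN KD minus Ctrl, on log2(RPKM + 1)) with its standard error for 21 tested ABC family genes, the 9 of the set in dark blue and 12 others in grey, filled where the adjusted p is under 0.05. ABCF2 (-0.66) and ABCE1 (-0.46) are the lowest of those shown, and ABCC10 (0.66) and ABCA7 (0.58) the highest. Changes at low levels, as for ABCA7, are understated on this scale.

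Genes that work with the ribosome-linked members moved in both directions. Beside the counts below, 25.3% of all tested genes were called higher and 22.8% lower. Of 18 translation termination and ribosome rescue genes, all tested, 3 rose, 4 fell and 11 did not pass (median log2 fold change -0.043, against 0.026 over all tested genes). GTPBP2, a rescue factor for stalled ribosomes, rose by 0.85 on the log2 scale, while DENR, which helps to free small subunits after ABCE1 has acted, fell by 0.83. NEMF, which marks stalled large subunits, fell by 0.51, and ZNF598, a ubiquitin ligase for collided ribosomes, fell by 0.48. Of 11 genes of cytosolic iron-sulfur assembly and the ABCE1 adaptors, 4 fell and 7 did not pass, and 0 were higher in limma (1 at an unadjusted p under 0.05, and 0 with limma voom). The 4 that fell were CIAO1 (-0.49), FAM96A (-0.31), the ABCE1 adaptor YAE1D1 (-0.20) and NUBP1 (-0.13), with a list median of -0.087. Of 15 genes of eIF2, its exchange factor and its kinases, the route in which the yeast relative of ABCF3 works, 7 fell, 2 rose and 6 did not pass (median -0.25). The largest falls were those of EIF2B3 (-0.77), EIF2S3 (-0.61), EIF2B5 (-0.56) and EIF2S2 (-0.53).

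Around ABCB10, 15 genes of heme synthesis and mitochondrial iron import were tested, of which 3 rose, 5 fell and 7 did not pass (median 0.045). The shares over all tested genes were 25.3% higher and 22.8% lower. SLC25A37, which encodes the mitoferrin that ABCB10 stabilises, fell by 0.56 on the log2 scale, from 11.02 and 10.41 RPKM in Ctrl to 6.77 and 7.17 RPKM in MYCN KD. SLC25A39, a mitochondrial glutathione carrier, fell by 0.58 and the chaperone subunit CLPX by 0.43, while PPOX, an enzyme of heme synthesis, rose by 0.38.

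Around the efflux pumps, 19 of 28 glutathione synthesis and conjugation genes were tested, of which 7 rose, 5 fell and 7 did not pass (median 0.084). For this list and the 2 that follow, the shares over all tested genes were 25.3% higher and 22.8% lower. GSTO1 fell by 0.83, glutathione reductase GSR by 0.66 and GGCT by 0.65, while the glutathione transferase GSTT1 rose by 0.61. Of 13 regulators known for efflux genes, 8 were tested, with RXRA (-0.51) and YBX1 (-0.35) lower, MAFF (0.49) higher and 5 not passing (median -0.10). Of 10 NRF2 target genes, of which GCLM and SLC7A11 are also in the glutathione list, 9 were tested, 2 rose, 2 fell and 5 did not pass (median -0.039). HMOX1 (0.97) and NQO1 (0.52) rose, and TXNRD1 (-0.63) and SRXN1 (-0.46) fell.

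**Figure D5:**
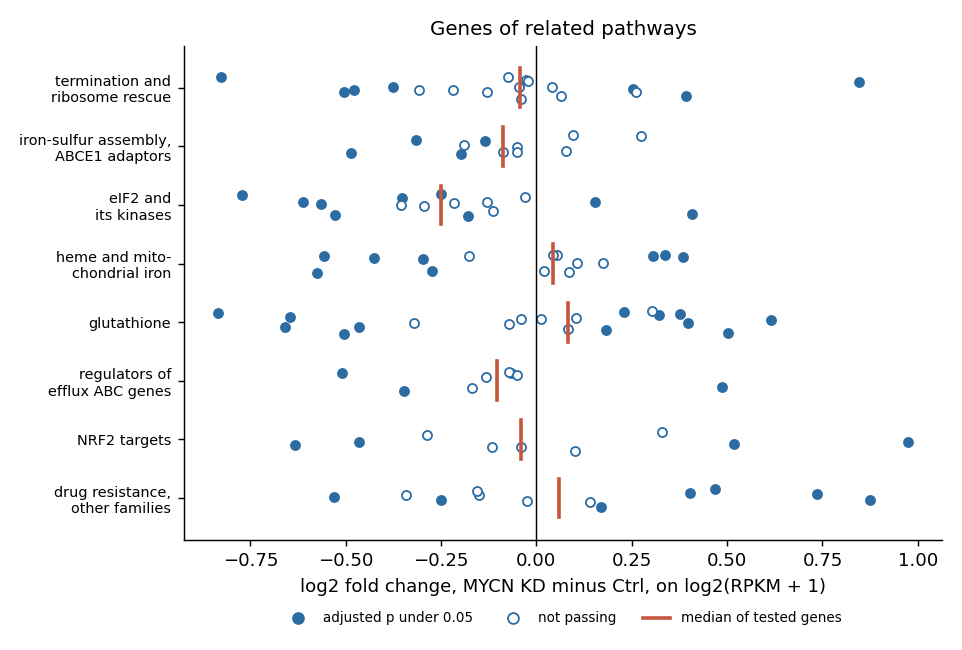
Log2 fold change (MYCN KD minus Ctrl, on log2(RPKM + 1)) of each tested gene in 8 lists related to the ABC genes, 1 row per list, filled where the adjusted p is under 0.05, with a vertical orange line at the median. Genes lie on both sides of 0 in every list, and the medians run from -0.25 (eIF2 and its kinases) to 0.084 (glutathione).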

How the data were processed

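Transcript levels were measured by RNA-seq in 2 Ctrl and 2 MYCN KD samples of BE(2)C cells, grouped by their labels. Alignment by the authors to hg19 used HISAT2 2.1.0, and reads of RefSeq genes were counted by featureCounts. After DESeq2 and a RUVSeq step against unwanted variation, the authors turned the normalized counts into the deposited RPKM values. The strandedness of the libraries is not given in the sources used here. RPKM steps gave whole reads (within 0.001 reads) for 100.0% of the 19908 genes above 0, with the total of each sample set from miRNA hairpins. These totals may differ from the raw depth, since counts were adjusted before deposit.

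The model was fitted by limma 3.58.1 under R 4.3.3 to log2(RPKM + 1) (lmFit, eBayes with trend, no block, a mean RPKM of at least 1, Benjamini-Hochberg adjustment over all tested genes, threshold 0.05). The fit was tested on simulated data, where it found nearly all genes given a change. Those genes had at least 5 RPKM, and each planted change was larger than those of ABCC1, ABCC5 and ABCE1. The simulation thus does not cover changes of that size. False calls there were more frequent in every run than the threshold of 0.05 implies. How far this carries over to the Ctrl and MYCN KD samples, with their mirrored replicate differences, was not tested. Python 3.11.15, pandas 2.3.3 and scipy 1.17.1 were used for tables, exact tests and intervals, and matplotlib 3.10.9 for plots. Gene positions came from GENCODE release 44 on GRCh37, and promoter windows from RefSeq on GRCh38.p14.

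The members and lists were chosen with earlier results of these data known. Named genes were all 10 members, the other ABC family genes past the threshold (at most 6 by size) with ABCF1, ABCB8 and ABCG2, at most 4 genes past the threshold by size in each further list, and MYCN and MYC. Some genes that this rule names are not reported here. Alternatives were a pseudocount of 0.1, no filter, a minimum of 5 RPKM, equal totals, quantile normalization, eBayes without trend, a replicate block, each sample left out, and limma voom on recovered reads. A crossed replicate block was added after seeing the data.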

Additional observations from a re-analysis of the deposited data

How the results depend on the processing

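Of the tested results, the changes of ABCF2, ABCC10 and MYCN kept their direction and call in all 13 alternatives (-0.67 to -0.60, 0.63 to 0.75 and -0.58 to -0.38 on the log2 scale). Not all of these could have turned out otherwise. The crossed replicate block called 11172 of the 11411 tested genes. Changing the filter, the trend or the block leaves the log2 fold change as it is, so these settings could not turn a direction. ABCC3, under the filter, was tested only in the fit without a filter, where it did not pass (0.13 ± 0.055 SE, adjusted p = 0.181, limma), and its difference was 0.26 with a pseudocount of 0.1. With quantile normalization ABCC1 was at -0.12 (adjusted p = 0.0718, limma). ABCE1 missed the threshold without a filter (-0.46, adjusted p = 0.0554) and with samples rescaled to the same total (-0.40, adjusted p = 0.0662). With each sample left out in turn, where the lone sample is assumed to vary like the other group, the log2 fold change ran from -0.21 to -0.17 for ABCC1 and from -0.25 to -0.23 for ABCC5, both no longer called, from -0.21 to 0.11 for ABCC4 and from -0.058 to 0.21 for ABCB10. ABCC4 changed sign without Ctrl replicate 2 (0.11) and without MYCN KD replicate 2 (0.10), and ABCB10 without Ctrl replicate 1 (-0.058) and without MYCN KD replicate 1 (-0.054). Leaving out a sample gave 2 members lower in each case, in place of 4, 1 to 2 other ABC genes lower, in place of 2, and 4 to 7 higher, in place of 4. Other ABC genes lower were 1 without a filter and 0 with equal totals, and a minimum of 5 RPKM gave 2 of them higher and 1868 tested genes higher, in place of 2890, with fewer genes tested (7859). Where no cause is given, the cause was not tested.

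The replicate numbers were not found to pair the samples: the deviations of the replicates 1 from their group means had a correlation of -0.98 between Ctrl and MYCN KD over 11411 genes. With the replicate block, ABCC1 (-0.19, adjusted p = 0.330) and ABCC5 (-0.24, adjusted p = 0.226) were not called, 2 members were lower, and 0 other ABC genes were lower (limma, 1 at an unadjusted p under 0.05), where limma voom without a block gave 2. With the crossed pairing in place of the replicate block, 5262 tested genes were lower and 5910 higher, 6 members were lower and 3 higher, adding ABCC4 (-0.054), ABCF3 (-0.089), ABCB1 (0.12) and ABCB10 (0.076), and 4 other ABC genes were lower and 9 higher. With 2 samples a group, no exact permutation test can go below p = 0.3333.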

Other observations

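Drug resistance genes outside the ABC family were measured in the same samples, where 25.3% of all tested genes were called higher and 22.8% lower. Of 12 such genes, all tested, 5 rose, 2 fell and 5 did not pass the test, with a median log2 fold change of 0.059 against 0.026 over all tested genes. ATP7A, a copper pump that can also carry platinum drugs, was at 2.64 and 3.30 RPKM in Ctrl and at 6.96 and 5.61 RPKM in MYCN KD (log2 fold change 0.87 ± 0.14 SE, limma with Benjamini-Hochberg adjustment, adjusted p = 0.0182). SLC31A1, the copper importer through which platinum drugs can enter, rose as well, from 39.3 and 42.3 RPKM to 58.9 and 54.8 RPKM. MVP, the major vault protein, rose from 0.841 and 0.887 RPKM to 2.17 and 2.04 RPKM. TYMS, the thymidylate synthase that fluorouracil inhibits, fell from 33.5 and 35.7 RPKM to 24.4 and 22.9 RPKM.

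ABCG4, a sterol transporter of the nervous system under the filter on low values, was chosen after its values were seen. It had 11 and 10 reads in Ctrl and 54 and 56 reads in MYCN KD, or 0.0819 and 0.0795 RPKM against 0.472 and 0.460 RPKM, and was not tested with the filter. In the fit without a filter it passed (log2 fold change 0.44 ± 0.014 SE, limma with Benjamini-Hochberg adjustment, adjusted p = 0.00680). Since the gene was picked by its values, that p-value adds no support.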
